A study of Homo sapiens with 11 samples.

Results

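F-box proteins are the interchangeable substrate receptors of the SCF ubiquitin ligases, and their RNA levels were described here in HEK293T cells in which NAE1 or UBE2M of the cullin neddylation pathway, or URM1, had been knocked down. Members were taken as every gene annotated as protein coding whose symbol begins with FBXO, FBXL or FBXW followed by a digit, together with BTRC, SKP2 and CCNF. This gave 65 of the 58735 annotated genes, and 62 of the 65 were among the 18368 genes with enough counts to be tested. The rule uses symbols and annotation and no measured value. By the class of their substrate-binding region, 10 members were FBXW proteins with WD40 repeats (BTRC included), 18 were FBXL proteins with leucine-rich repeats (SKP2 included) and 37 were FBXO proteins with other or no recognised domains (CCNF included). The rule leaves out F-box genes that carry other symbols, and 8 genes with FBX symbols that were not annotated as protein coding were not members.

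HEK293T is an established human embryonic kidney cell line, and poly(A) RNA of 11 libraries was sequenced with a strand-specific kit. Cells were harvested 48 h after knockdown with siRNA against NAE1 at 50 nM (siNAE1, n = 3), UBE2M at 70 nM (siUBE2M, n = 3) or URM1 at 60 nM (siURM1, n = 2), and compared with cells labelled as receiving control siRNA (control, n = 3). The study's methods describe a non-targeting siRNA as negative control with no dose, whereas its supplement codes these libraries as HKWT, so if they were not transfected, an effect of transfection cannot be told apart from the knockdowns. The libraries of a group are labelled as biological replicates without saying how the cultures were separated, so p-values measure the spread between these libraries. All cells were of a single line, each target was represented by 1 knockdown condition at its own siRNA dose, and target and dose cannot be told apart. The study's supplement lists 1 siRNA sequence for each target, so other effects of that sequence cannot be told apart from loss of the target.

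An SCF ligase is built on the cullin CUL1, which binds the RING protein RBX1 at one end and the adaptor SKP1 at the other, and SKP1 holds the F-box protein that picks the substrate. The ligase is switched on when the ubiquitin-like protein NEDD8 is joined to the cullin by the activating enzyme NAE1-UBA3 and the conjugating enzyme UBE2M, and CAND1 exchanges one F-box protein for another on cullins that have lost NEDD8. URM1 is a ubiquitin-like protein that acts as the sulfur carrier for thiolation of certain tRNAs and can also be attached to proteins. The study reports that NAE1-UBA3 and UBE2M also serve as activating and conjugating enzymes for that attachment. The name neddylation knockdowns, used below for siNAE1 and siUBE2M, therefore does not set them apart from the URM1 pathway. Because many F-box proteins are themselves turned over by ubiquitination, the RNA levels given below are not protein levels.

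Each library held between 11733163 and 16321391 counts assigned to genes, and F-box members received from 0.234 to 0.249% of them. The targeted RNAs were lower in their own knockdowns, by 1.36 on the log2 scale for NAE1, 3.98 for UBE2M and 1.80 for URM1, with adjusted p-values in edgeR's quasi-likelihood test of 9.23e-16, 1.43e-27 and 2.59e-15. The targets also moved in the other knockdowns by smaller amounts. NAE1 rose by 0.28 in siUBE2M and 0.38 in siURM1, and UBA3, its partner in the activating enzyme, by 0.42 and 0.28. URM1 rose by 0.28 in siNAE1. UBE2M fell by 0.37 in siURM1 (edgeR adjusted p = 8.94e-05) and by 0.16 in siNAE1 (edgeR adjusted p = 0.0289), where the call was lost without any 1 control library or the first or the second siNAE1 library, at 0.0549 to 0.0971. The 5 markers expected of the line (VIM, NEFM, NEFL, LIN28B and PAX2) had from 59 to 5383 counts in every library, whereas ALB, PTPRC, CD3E, MYH7 and KRT5 had at most 9. The 3 comparisons with control share the same control libraries, so agreement between them is not independent, and the values of each are given side by side.

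The promoters of CCNF, which rose in all 3 knockdowns, and of FBXO4 and FBXW4, which fell in all 3, are shown to let their sequence be read beside their response. Each runs from 250 bases before to 50 after a RefSeq start on GRCh38.p14, 5′ to 3′ on the gene's own strand. Capitals mark TTTGAA, the letters of the cell cycle genes homology region, an element found in many promoters that are active in the G2 and M phases of the cell cycle.
CCNF: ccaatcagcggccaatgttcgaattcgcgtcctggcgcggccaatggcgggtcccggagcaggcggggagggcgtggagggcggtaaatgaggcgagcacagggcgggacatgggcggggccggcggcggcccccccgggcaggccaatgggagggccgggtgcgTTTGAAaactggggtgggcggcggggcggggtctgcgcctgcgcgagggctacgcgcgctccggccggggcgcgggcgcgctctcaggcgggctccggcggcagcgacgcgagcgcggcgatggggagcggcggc
FBXO4: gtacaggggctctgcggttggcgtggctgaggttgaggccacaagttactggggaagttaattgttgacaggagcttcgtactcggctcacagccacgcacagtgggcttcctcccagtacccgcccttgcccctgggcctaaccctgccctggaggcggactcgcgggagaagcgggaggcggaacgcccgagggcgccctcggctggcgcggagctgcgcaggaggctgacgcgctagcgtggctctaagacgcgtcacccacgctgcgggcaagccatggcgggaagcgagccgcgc
FBXW4: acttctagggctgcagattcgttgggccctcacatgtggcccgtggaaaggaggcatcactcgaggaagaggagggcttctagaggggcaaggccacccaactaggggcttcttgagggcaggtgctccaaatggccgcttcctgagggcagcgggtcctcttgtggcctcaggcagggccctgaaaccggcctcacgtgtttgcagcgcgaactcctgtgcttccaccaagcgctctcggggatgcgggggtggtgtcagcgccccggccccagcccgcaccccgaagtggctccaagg
The CCNF promoter lies at chr16:2429197-2429496 on the plus strand, and its start is 53 bases from the one listed for the gene in the files. Its single match begins 85 bases before the RefSeq start. The FBXO4 promoter, at chr5:41925031-41925330 on the plus strand, and the FBXW4 promoter, at chr10:101695246-101695545 on the minus strand, held no match on either strand. The letters were present on either strand in 15.2% of 35116 RefSeq promoters of this length and in 10.0% of the 70 promoters that matched 50 members. Members with a match were CCNF, FBXL14, FBXO11, FBXO17, FBXO36, FBXO5 and FBXW7, which moved differently from each other, and a match is a description of the letters only.

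In control cells most F-box genes were expressed at modest levels. The deposited FPKM, a read density per length of gene, averaged at least 1 in the control libraries for 51 of 65 members, at least 5 for 31 and at least 10 for 13. The median over the 62 tested members was 5.06 FPKM, beside 3.65 over all tested genes and 5.36 over tested protein-coding genes. SKP2, which directs the cyclin-dependent kinase inhibitor p27 to degradation, had the highest control level of 27.6 ± 2.39 FPKM (SD, n = 3). It was followed by FBXL19 with 26.9 ± 1.48, by FBXW5, a receptor for the centriole assembly factor SASS6 and for TSC2, with 25.5 ± 1.14, by FBXW11, one of the paralogous β-TrCP receptors, with 18.2 ± 1.69, and by FBXO7, a receptor mutated in familial parkinsonism, with 17.0 ± 0.41. The control libraries of the first 3 genes overlapped, so their order is within the spread between libraries. The other β-TrCP gene, BTRC, had 9.82 ± 0.741 FPKM.

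At the lower end, FBXO39 and FBXO40 had no count in any library, and FBXO47 had 1 count in 1 siUBE2M library; these 3 were not tested. FBXL7, FBXO15, FBXL22, FBXW10 and FBXW12 had control means of 0.0927 ± 0.0277, 0.108 ± 0.021, 0.134 ± 0.0736, 0.144 ± 0.028 and 0.169 ± 0.105 FPKM. Changes of these genes rest on few counts.

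**Figure D1:**
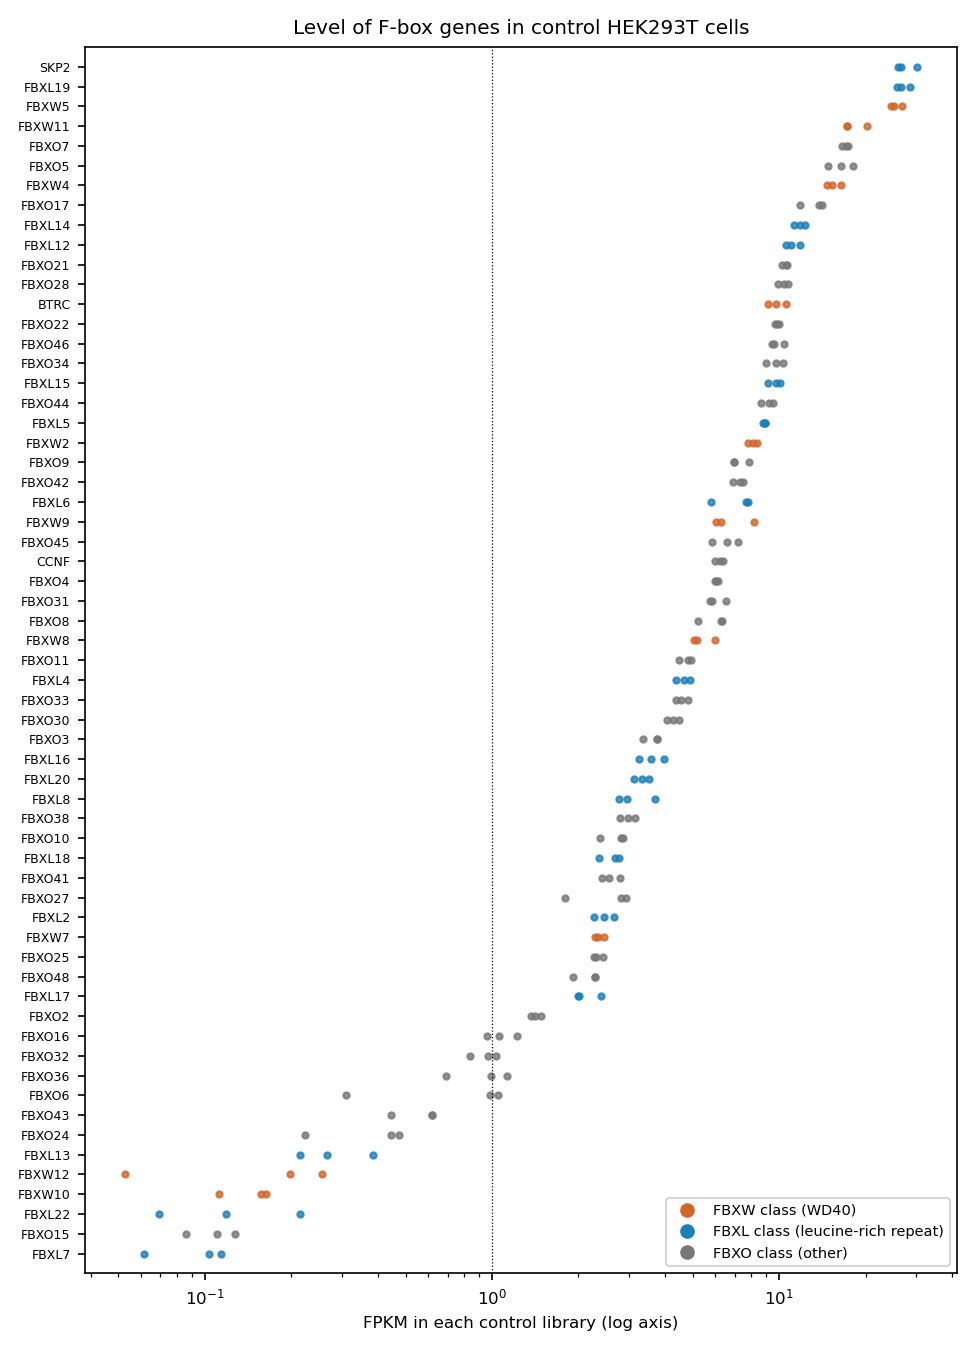
Level of the tested F-box genes reported here in control HEK293T cells, as the deposited FPKM on a log axis, with 1 point for each of the 3 control libraries and colour for the class of substrate-binding region. Levels run from under 0.1 FPKM for FBXL7 to 27.6 for SKP2, the dotted line marks 1 FPKM, and all 3 classes spread over the range.

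F-box RNAs moved in both directions in every knockdown, in shares near those of all tested genes. A gene was called when its edgeR adjusted p over all tested genes was under 0.05. In siNAE1 cells 20 of 62 members were called higher (32.3%, beside 27.6% of all tested genes) and 16 lower (25.8%, beside 27.1%). In siUBE2M cells 19 were called higher (30.6%, beside 22.7%) and 13 lower (21.0%, beside 22.6%). In siURM1 cells 16 were called higher (25.8%, beside 20.8%) and 11 lower (17.7%, beside 20.8%). The median log2 fold change of the members was 0.06 in siNAE1, 0.06 in siUBE2M and 0.09 in siURM1, whereas that of all tested genes was -0.002, 0.007 and -0.02.

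Members of each class moved in both directions. Of the 10 FBXW members 5, 3 and 1 were higher and 2, 3 and 2 lower in siNAE1, siUBE2M and siURM1. Of the 18 FBXL members 6, 4 and 6 were higher and 4, 4 and 2 lower, and of the 34 tested FBXO members 9, 12 and 9 were higher and 10, 6 and 7 lower. Over the same comparisons the calls covered 27.6, 22.7 and 20.8% of all tested genes higher and 27.1, 22.6 and 20.8% lower, and no test compared the classes.

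Fewer members changed by 1 or more on the log2 scale, which is at least 2-fold. In siNAE1 1 called member passed this threshold upwards (beside 5.3% of all tested genes) and 7 downwards (beside 8.61%), in siUBE2M 3 and 4 (beside 3.22% and 3.89%), and in siURM1 1 and 3 (beside 2.89% and 4.73%). The members past the threshold were CCNF, FBXO4, FBXW4, FBXO43, FBXO15, FBXL22, FBXO25 and FBXO48 in siNAE1, CCNF, FBXO6, FBXO11, FBXO4, FBXW4, FBXO43 and FBXO15 in siUBE2M, and FBXL16, FBXO4, FBXO43 and FBXO16 in siURM1. FBXO43 and FBXO15 reached the filter on low counts through the control libraries alone, so a tested value of either could hardly be other than lower in the knockdowns. Without these 2 members, 5, 2 and 2 stood past the threshold downwards, and 14, 11 and 10 were called lower. FBXO9 lay just outside in siNAE1, at a value below the threshold that rounds to it.

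**Figure D2:**
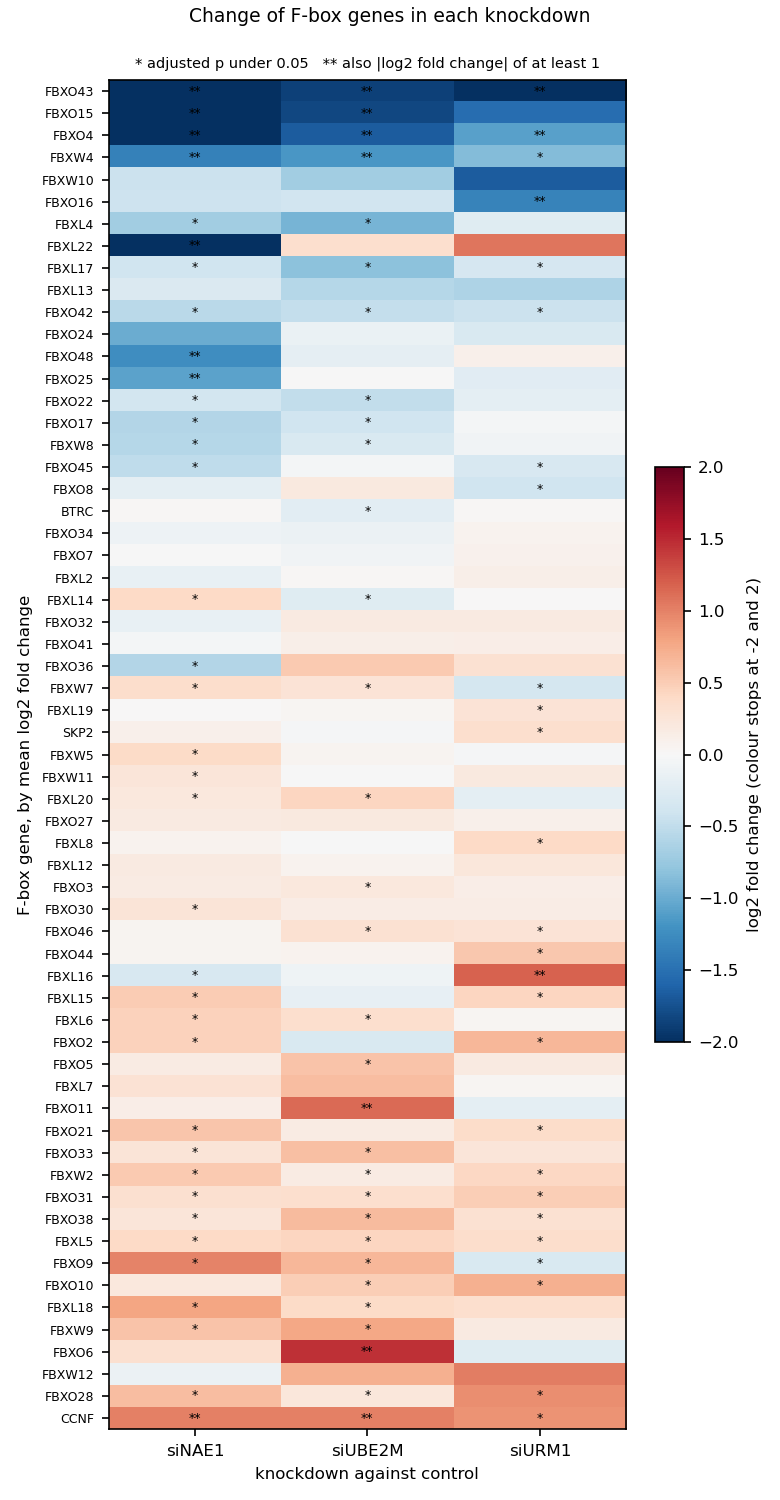
Log2 fold change of the tested F-box genes reported here (rows, ordered by their mean change) in siNAE1, siUBE2M and siURM1 against control (columns), as colour that stops at -2 and 2, with 1 star for an edgeR adjusted p under 0.05 and 2 stars where the change was also at least 1 in size. Blue at the top and red at the bottom show that members changed in both directions, with FBXO4 at -2.04, -1.67 and -1.09 and CCNF at 1.01, 1.01 and 0.89.

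CCNF was among the 3 members with the highest called increase in each knockdown. CCNF encodes cyclin F, an F-box protein that peaks in G2 and directs the ribonucleotide reductase subunit RRM2 to degradation. Its library-scaled CPM (counts relative to the TMM-scaled size of the library) were 40.9, 38.0 and 39.5 in control, 77.6, 80.0 and 80.6 in siNAE1, 75.6, 78.2 and 84.9 in siUBE2M, and 73.5 and 73.1 in siURM1. Every knockdown library was above every control library, and the knockdown groups lay close together. The log2 fold changes were 1.01 ± 0.07 (SE), 1.01 ± 0.07 and 0.89 ± 0.08, with edgeR adjusted p-values of 3.34e-13, 6.63e-13 and 1.04e-10. The knockdowns could not be separated from each other for CCNF, with edgeR adjusted p-values between 0.253 and 0.976 and differences from 0.00 to 0.12.

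Other cell cycle genes moved in the same libraries. Of 9 markers of G2 and M, 6 rose and none fell in siNAE1, 7 rose and 1 fell in siUBE2M, and 4 rose and none fell in siURM1, where 20.8 to 27.6% of all tested genes were called in each direction. MKI67 changed by 0.71, 1.44 and 0.35 and CCNB1 by 0.58, 0.69 and 0.68 on the log2 scale. The summed level of the 9 genes was 1478 to 1582 CPM in control, 1753 to 1851 in siNAE1, 2195 to 2387 in siUBE2M and 1623 to 1660 in siURM1, and none was at 0. Abundant genes weigh most in this sum. MKI67 had 216 to 245 CPM in control and 562 to 671 in siUBE2M, whereas CCNA2 had 122 to 135 in control and 105 to 115 in siUBE2M. Of 9 G1/S markers, of which CCNE2 and E2F1 also stand among the substrate genes described last, 2, 3 and 0 rose and 2, 2 and 4 fell. Their summed level was 1481 to 1489 CPM in control, 1542 to 1615 in siNAE1, 1476 to 1555 in siUBE2M and 1314 to 1333 in siURM1. The part of these shifts in the change of CCNF was not tested, and in RNA from whole cultures more cells in a phase and more RNA per cell cannot be told apart, nor can fewer cells and less RNA.

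The counterpart of CCNF was FBXO4, described as a receptor for cyclin D1 and for the telomere protein TERF1, which was lower in all 3 knockdowns. FBXO4 (ENSG00000151876, chr5:41925254-41941743 on GRCh38) had 18.5, 18.1 and 18.6 CPM in control, 4.22, 4.27 and 5.02 in siNAE1, 7.66, 5.05 and 4.71 in siUBE2M, and 7.55 and 9.77 in siURM1. All knockdown libraries were below all control libraries. It changed by -2.04 ± 0.16, -1.67 ± 0.16 and -1.09 ± 0.17 on the log2 scale, with edgeR adjusted p-values of 3.67e-12, 1.87e-10 and 2.93e-06. The fall was larger in siNAE1 than in siURM1 by 0.94 (edgeR adjusted p = 0.000181), and for siNAE1 against siUBE2M the difference of -0.37 did not pass the test (edgeR adjusted p = 0.11). The siUBE2M level was below that of siURM1 by 0.58 (edgeR adjusted p = 0.0134), with overlapping libraries.

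FBXW4, also called dactylin, whose locus is rearranged in split hand and foot malformation, fell in the same way from a higher level. Its values were 78.2, 82.9 and 74.4 CPM in control, 30.6, 31.1 and 30.9 in siNAE1, 33.7, 33.7 and 37.9 in siUBE2M, and 44.5 and 41.8 in siURM1. No knockdown library reached the control range. The log2 fold changes were -1.35 ± 0.08, -1.16 ± 0.08 and -0.86 ± 0.09, and their edgeR adjusted p-values were 2.95e-15, 1.54e-13 and 1.39e-09. The siURM1 libraries were above those of both other knockdowns, by 0.48 over siNAE1 (edgeR adjusted p = 7.08e-05) and 0.30 over siUBE2M (edgeR adjusted p = 0.00909).

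In all, 6 members were called higher in each of the 3 knockdowns (beside 9.3% of all tested genes) and 5 lower in each (beside 9.62%), or 4 lower without FBXO43, which reached the low-count filter through control alone. With CCNF, the members called higher were FBXL5, FBXO28, FBXO31, FBXO38 and FBXW2. FBXL5, the iron-sensing receptor for the iron regulatory protein IREB2, rose from 40.3 to 41.4 CPM in control to 50.5 to 55.8 in siNAE1, 53.6 to 56.9 in siUBE2M and 51.9 to 52.8 in siURM1, a change of 0.39, 0.43 and 0.36. FBXO28 rose by 0.61, 0.23 and 0.94, and its siURM1 libraries (122 and 120 CPM) stood above the siUBE2M libraries (72.6 to 75.2), with a direct difference of -0.71 for siUBE2M against siURM1 (edgeR adjusted p = 9.37e-09). FBXO31, another receptor described for cyclin D1, rose by 0.32, 0.34 and 0.50, opposite in direction to FBXO4. FBXO38, described as a receptor for the immune checkpoint protein PD-1, rose by 0.24, 0.63 and 0.30, and FBXW2, described as a receptor for the placental factor GCM1, by 0.53, 0.17 and 0.42.

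With FBXO4 and FBXW4, the members called lower in each knockdown were FBXO42, FBXL17 and FBXO43. FBXO42, described as a receptor for p53, had 62.7 to 68.2 CPM in control and between 43.9 and 51.5 in all 8 knockdown libraries, and changed by -0.53, -0.48 and -0.43. FBXL17 changed by -0.41, -0.82 and -0.34, and its call in siURM1 was lost in several settings, with an edgeR adjusted p of 0.0393 in the fit used here, 0.208 without the third control library, 0.278 and 0.0631 without the first and the second siURM1 library, and 0.0512 and 0.0524 without the first and the second siUBE2M library. It was also lost with no filter on low counts (edgeR adjusted p = 0.0905), with the replicate number as a block (edgeR adjusted p = 0.0619) and in DESeq2 (adjusted p = 0.0956).

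**Figure D3:**
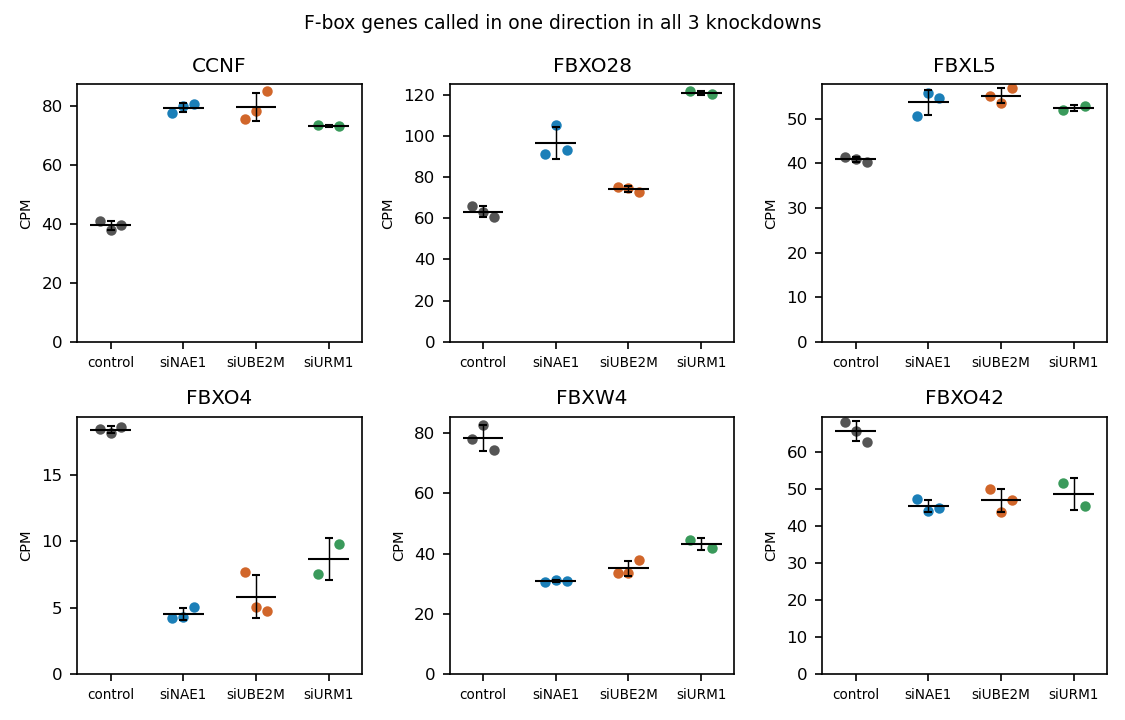
CPM in each library (points) with the group mean and SD (bars) for 3 F-box genes called higher and 3 called lower in all 3 knockdowns, in control (n = 3), siNAE1 (n = 3), siUBE2M (n = 3) and siURM1 (n = 2), with each axis starting at 0. For CCNF the 8 knockdown libraries lie between 73.1 and 84.9 CPM, above the control libraries at 38.0 to 40.9, and for FBXO4 they lie between 4.22 and 9.77, below the control libraries at 18.1 to 18.6.

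FBXO43, which encodes EMI2, the inhibitor of the anaphase-promoting complex known from oocytes, was lower in all 3 knockdowns, from a low level in control. Its raw counts were 41, 40 and 28 in control, 1, 0 and 3 in siNAE1, 3, 6 and 17 in siUBE2M, and 5 and 1 in siURM1. No knockdown library reached the control range, and the third siUBE2M library was the highest among them. With counts pooled and scaled, siNAE1 held 4.64% of the control level (95% exact interval 1.24 to 12.2, counting error only), siUBE2M 27.0% (16.9 to 41.6) and siURM1 8.80% (3.16 to 19.8). The fitted changes were -4.30, -1.87 and -3.46. Because FBXO43 entered the test through its control libraries alone, the tests against control are not independent of the filter.

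FBXO15, a gene known as a marker of embryonic stem cells, and FBXL22, described in heart muscle, rest on still fewer counts, and FBXO15 entered the test through its control libraries alone. FBXO15 had 9, 13 and 11 counts in control, 1, 0 and 0 in siNAE1, 1, 0 and 7 in siUBE2M, and 4 and 3 in siURM1. The siNAE1 level was 3.83% of control (95% exact interval 0.0943 to 22.9), the siUBE2M level 27.4% (10.9 to 60.5) and the siURM1 level 33.9% (12.7 to 77.9), and the siURM1 change was not called (edgeR adjusted p = 0.135). The siUBE2M call of FBXO15 (edgeR adjusted p = 0.0466) was lost without the first or second siUBE2M library, at 0.16 and 0.212, without the first control library, at 0.0569, and without either siURM1 library, at 0.0743 and 0.0744. It was also lost with no filter on low counts (edgeR adjusted p = 0.111) and in DESeq2 (adjusted p = 0.169).

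FBXL22 had 13, 7 and 4 counts in control, 1, 0 and 1 in siNAE1, 3, 10 and 14 in siUBE2M, and 23 and 9 in siURM1. The siNAE1 libraries lay below all others, at 10.5% of control (95% exact interval 1.21 to 42.5). Their call (edgeR adjusted p = 0.00831) was lost without the first control library (edgeR adjusted p = 0.054). An antisense gene that overlaps FBXL22, USP3-AS1, changed by -1.54 in siNAE1 (edgeR adjusted p = 0.1).

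Of 11 receptors with substrates or roles in the cell cycle, 5 rose and 2 fell in siNAE1, 5 and 3 in siUBE2M, and 3 and 3 in siURM1. The calls over all genes in these comparisons covered 27.6, 22.7 and 20.8% of all tested genes higher and 27.1, 22.6 and 20.8% lower. Every count of falls includes FBXO43, which entered the test through control alone, and without it 1, 2 and 2 fell. Their median log2 fold changes were 0.16, 0.06 and 0.03, beside -0.002, 0.007 and -0.02 over all tested genes. Besides CCNF, FBXO4, FBXO31 and FBXO43, the list held SKP2, both β-TrCP genes, FBXW7, FBXW5, FBXO5 and FBXO11.

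SKP2 was 101, 102 and 117 CPM in control, 115, 113 and 115 in siNAE1, 105, 103 and 106 in siUBE2M, and 140 and 129 in siURM1. It rose in siURM1 by 0.34 ± 0.07 (edgeR adjusted p = 0.000383) and was not called in siNAE1 (0.10) or siUBE2M (-0.02), though siNAE1 was called without the third control library (edgeR adjusted p = 0.0454). The siURM1 libraries stood above all others, and siURM1 exceeded siNAE1 by 0.24 (edgeR adjusted p = 0.0107) and siUBE2M by 0.36 (edgeR adjusted p = 0.000245). CKS1B, the cofactor that SKP2 needs to bind p27, rose by 0.37 in siNAE1 and 0.30 in siURM1 and fell by 0.22 in siUBE2M.

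FBXW7, the receptor for MYC, cyclin E, JUN and NOTCH1, moved in opposite directions. It had 25.8, 27.3 and 26.1 CPM in control, 31.0, 37.4 and 31.8 in siNAE1, 30.0, 33.9 and 32.1 in siUBE2M, and 21.2 and 19.9 in siURM1, with no overlap between any knockdown group and control. It rose by 0.34 in siNAE1 and 0.28 in siUBE2M and fell by 0.36 in siURM1 (edgeR adjusted p = 0.00243, 0.015 and 0.00793). The direct differences from siURM1 were 0.70 for siNAE1 and 0.64 for siUBE2M (edgeR adjusted p = 4.2e-06 and 2.13e-05). Against control, its call was lost in siUBE2M without the second siUBE2M library (edgeR adjusted p = 0.0652) and in siURM1 without the second siURM1 library (edgeR adjusted p = 0.0846).

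The β-TrCP genes, whose products recognise phosphorylated β-catenin, IκB and CDC25A, moved little. BTRC was called in siUBE2M only, at -0.21 (edgeR adjusted p = 0.0346), with overlapping libraries, and the call was lost without the first control library (edgeR adjusted p = 0.215), the third control library (0.0667), or the second (0.0673) or the third (0.195) siUBE2M library. FBXW11 was called in siNAE1 at 0.24 (edgeR adjusted p = 0.00642), again with overlapping libraries, and its change of 0.19 in siURM1 (edgeR adjusted p = 0.0599) was called with the 2 groups fitted alone (0.0342), without the third control library (0.00943) or without the second (0.0432) or the third (0.0399) siUBE2M library. FBXW5 was called in siNAE1 at 0.38, with 102 to 119 CPM against 80.3 to 88.3 in control (edgeR adjusted p = 0.000112).

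FBXO5, which encodes EMI1, the somatic inhibitor of the anaphase-promoting complex, was called in siUBE2M and not in the others. Its levels were 57.7, 63.3 and 70.0 CPM in control, 74.4, 69.0 and 69.6 in siNAE1, 99.5, 89.1 and 94.2 in siUBE2M, and 68.3 and 76.0 in siURM1. It rose by 0.57 ± 0.08 in siUBE2M (edgeR adjusted p = 2.62e-07), and siUBE2M exceeded siNAE1 by 0.41 (edgeR adjusted p = 4.96e-05) and siURM1 by 0.39 (edgeR adjusted p = 0.000584). In siNAE1 and siURM1 its changes of 0.16 and 0.18 were past the threshold without the third control library, at edgeR adjusted p-values of 0.0219 and 0.022. The summed G2 and M marker level given above was also highest in the siUBE2M libraries, and its part in the FBXO5 difference was not tested.

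FBXO11, a receptor for the transcriptional repressor BCL6, had one of the clearest differences between knockdowns. It had 35.4, 31.7 and 34.2 CPM in control, 38.9, 37.1 and 35.0 in siNAE1, 67.2, 82.0 and 73.2 in siUBE2M, and 32.8 and 26.0 in siURM1. The siUBE2M libraries were far above the rest, which overlapped in part. Without the first siURM1 library the siURM1 level was called lower than control, by 0.37 (edgeR adjusted p = 0.029). The rise in siUBE2M was 1.13 ± 0.09 (edgeR adjusted p = 4.82e-12), and siUBE2M exceeded siNAE1 by 1.00 and siURM1 by 1.33 on the log2 scale (edgeR adjusted p = 9.95e-11 and 8.45e-12). FBXO11 (chr2:47789316-47905793) overlaps 2 genes on the opposite strand that also moved in siUBE2M, MSH6 by 0.32 over 20786 shared bases and AC079807.1 by 0.85 over 116. The strand setting of the counting was not given in the sources used here, and the part of reads from these genes was not tested.

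The receptors for N-linked glycoproteins and their nearest relatives, FBXO2, FBXO6, FBXO17, FBXO27 and FBXO44, numbered 5. Of the 5, 1 rose and 1 fell in siNAE1, 1 and 1 in siUBE2M, and 2 and 0 in siURM1, beside 27.6, 22.7 and 20.8% of all tested genes higher and 27.1, 22.6 and 20.8% lower. FBXO6, which binds the sugar chains of misfolded glycoproteins, had 1.81, 1.91 and 0.568 CPM in control, 1.69, 1.75 and 1.97 in siNAE1, 4.27, 3.80 and 3.79 in siUBE2M, and 1.31 and 1.11 in siURM1. All 3 siUBE2M libraries were above every other library, a rise of 1.46 ± 0.32 over control (edgeR adjusted p = 0.000305). Against the other knockdowns the siUBE2M excess was 1.13 over siNAE1 (edgeR adjusted p = 0.00396) and 1.70 over siURM1 (edgeR adjusted p = 0.00057).

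FBXO17 fell in siNAE1 and siUBE2M, by 0.59 and 0.40, from 58.9 to 70.3 CPM in control to 42.3 to 46.5 and 46.0 to 54.4, and was not called in siURM1 (-0.05). FBXO2 and FBXO44 lie beside each other on chromosome 1 and share 1411 bases on opposite strands. FBXO44 was called in siURM1 at 0.54, with 50.5 and 44.0 CPM against 30.7 to 33.8 in control (edgeR adjusted p = 0.000123). FBXO2, known in neurons, was called in siURM1 at 0.66 and in siNAE1 at 0.47. Its siURM1 call (edgeR adjusted p = 0.0128) was lost without the first siURM1 library (edgeR adjusted p = 0.123), and its siNAE1 call (edgeR adjusted p = 0.0473) was lost without any single library of control or siNAE1, at edgeR adjusted p-values from 0.054 to 0.145. The siNAE1 call of FBXO2 was also lost with no filter on low counts (edgeR adjusted p = 0.057), with at least 10 counts in every library (0.065), with protein-coding genes only (0.0577) and in DESeq2 (0.124). FBXO27 was not called in any knockdown.

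Among receptors tied to mitochondria or redox control, FBXL4, FBXO22 and FBXL17 were lower in both neddylation knockdowns and FBXO7 was not called, which is 3 of 4 lower and 0 higher in each (beside 27.1 and 22.6% of all tested genes lower) and, in siURM1, 1 lower (beside 20.8%). FBXL4, which restrains mitophagy by removing the mitophagy receptors BNIP3 and BNIP3L, had 36.0, 37.9 and 39.9 CPM in control, 25.4, 23.8 and 20.8 in siNAE1, 17.9, 23.5 and 18.3 in siUBE2M, and 30.3 and 34.1 in siURM1. Its changes were -0.70 ± 0.10, -0.93 ± 0.10 and -0.24 ± 0.11, and the last was not called (edgeR adjusted p = 0.0883). The siURM1 libraries lay between control and the other knockdowns, and the differences of siNAE1 and siUBE2M from siURM1 were -0.46 and -0.69 (edgeR adjusted p = 0.00198 and 1.98e-05). BNIP3 RNA rose by 0.92, 0.53 and 0.56, and BNIP3L changed by -0.50, -0.02 and -0.31.

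FBXO22, a receptor for the heme-responsive repressor BACH1, had 115 to 118 CPM in control, 83.4 to 103 in siNAE1, 71.9 to 90.4 in siUBE2M, and 102 and 103 in siURM1. Its changes were -0.36, -0.49 and -0.19, called in the first 2. In siURM1 (edgeR adjusted p = 0.0844) both libraries lay below control, and the call was made with the 2 groups fitted alone (0.0339), with at least 10 counts in every library (0.0459), with protein-coding genes only (0.0431), with a replicate block (0.0172) and without the third siUBE2M library (0.0449). FBXL17, which removes faulty BTB-domain dimers and also recognises BACH1, was described above. BACH1 RNA changed by -0.30, -0.71 and 0.04. FBXO7 stayed between 133 and 156 CPM in all 11 libraries, with log2 fold changes of -0.01, -0.07 and 0.08.

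Of the receptors known from epithelial-mesenchymal transition, muscle and neurons, FBXL14 and FBXO45 were called and FBXO32 and FBXO41 were not. FBXL14, a receptor for the transition factor SNAI1, had 25.8 to 28.5 CPM in control, 32.9 to 39.7 in siNAE1, 22.1 to 24.1 in siUBE2M, and 29.5 and 25.4 in siURM1. It rose by 0.40 in siNAE1 (edgeR adjusted p = 0.000684), and siNAE1 exceeded siUBE2M by 0.64 (edgeR adjusted p = 2.41e-06). Its fall in siUBE2M of -0.24 (edgeR adjusted p = 0.0441) was lost without the first or the third control library or any 1 siUBE2M library, at edgeR adjusted p-values from 0.0652 to 0.15, with no filter on low counts (0.0914) and in DESeq2 (0.0721). FBXL14 lies within the opposite-strand span of WNT5B, which was not called in any knockdown. FBXO45, known from axon guidance and synapses, fell by 0.50 in siNAE1 and 0.31 in siURM1, and the siURM1 call (edgeR adjusted p = 0.0172) was lost without the third control library (0.118) or the first siURM1 library (0.176).

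Beyond these lists, several members responded to a single knockdown by 1 or more on the log2 scale. FBXL16 rose in siURM1, from 16.1, 13.0 and 14.4 CPM in control to 33.5 and 32.1, with 10.1 to 13.5 in siNAE1 and 13.3 to 13.8 in siUBE2M. The siURM1 libraries were above every other library. The change was 1.18 ± 0.12 (edgeR adjusted p = 1.61e-09), and siURM1 exceeded siNAE1 by 1.499 and siUBE2M by 1.27 (edgeR adjusted p = 3.49e-11 and 8.02e-10). FBXL16 was called lower in siNAE1 at -0.32 (edgeR adjusted p = 0.0265), a call lost without the first control library (0.147) or the first (0.161) or second (0.0666) siNAE1 library, with no filter on low counts (0.052) and in DESeq2 (0.0585).

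FBXO25 and FBXO48 fell in siNAE1 and were not called in the others. FBXO25 had 26.7, 26.0 and 28.1 CPM in control, 16.0, 12.8 and 9.60 in siNAE1, 28.5, 24.9 and 26.9 in siUBE2M, and 21.8 and 24.3 in siURM1, a change of -1.06 ± 0.12 in siNAE1 (edgeR adjusted p = 8.14e-09). FBXO48 had 13.2, 10.9 and 13.1 CPM in control, 5.07, 6.29 and 4.22 in siNAE1, 10.1, 11.1 and 11.4 in siUBE2M, and 14.0 and 12.4 in siURM1, a change of -1.24 ± 0.15 in siNAE1 (edgeR adjusted p = 3.16e-08). For both genes the siNAE1 libraries were below every other library. FBXO16 fell in siURM1, from 3.86, 4.86 and 4.23 CPM in control to 1.44 and 2.01, by 1.33 ± 0.28 (edgeR adjusted p = 0.000221). FBXO16 shares its strand over 54415 bases with ZNF395, which rose by 0.35 in siURM1 (edgeR adjusted p = 0.00735).

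FBXO9, a receptor that acts on components of mTOR complexes, rose in both neddylation knockdowns and fell in siURM1. It had 57.8, 64.1 and 57.4 CPM in control, 115, 122 and 121 in siNAE1, 96.2, 97.2 and 91.1 in siUBE2M, and 47.7 and 48.6 in siURM1, and the 4 groups did not overlap. It changed by 1.00 ± 0.07, 0.67 ± 0.07 and -0.31 ± 0.08 (edgeR adjusted p = 1.23e-13, 2.03e-09 and 0.00215), and siNAE1 exceeded siURM1 by 1.31 (edgeR adjusted p = 3.02e-14). FBXO9 shares 9812 bases on opposite strands with ICK, which fell by 0.75 in siNAE1 (edgeR adjusted p = 1.7e-06). FBXL18, next after CCNF and FBXO9 among the called increases of siNAE1, rose by 0.79 there, from 12.1 to 14.3 CPM in control to 20.8 to 26.4. A non-coding gene that overlaps FBXL18 on the opposite strand, AC092171.2, moved by a like 0.78. AC092171.2 also rose by 0.33 in siUBE2M (edgeR adjusted p = 0.0114) and 0.46 in siURM1 (edgeR adjusted p = 0.00188). Its mean control count was 315, beside 217 for FBXL18. FBXL18 also rose by 0.39 in siUBE2M (edgeR adjusted p = 0.0114), a call lost without the second control library (0.0559) or the first siUBE2M library (0.0799). Its siURM1 libraries, at 18.2 and 15.4 CPM, were above all control libraries, a change of 0.33 at the edge of the threshold (edgeR adjusted p = 0.0511), which passed it in 8 alternatives (0.0317 to 0.0486), among them the fits without the first control library, the second siURM1 library, the first siNAE1 library or any 1 siUBE2M library.

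FBXO36 stood on opposite sides of control in the neddylation knockdowns. It had 2.78, 3.94 and 4.48 CPM in control, 2.07, 2.03 and 3.41 in siNAE1, 5.08, 5.44 and 5.48 in siUBE2M, and 4.06 and 5.13 in siURM1. The direct difference of siNAE1 from siUBE2M was -1.11 ± 0.24 (edgeR adjusted p = 0.00033). Its own changes were -0.59 in siNAE1 (edgeR adjusted p = 0.0431), where the call was lost without the second or the third control library or the first or second siNAE1 library at 0.0987 to 0.189, with no filter on low counts (0.0597), with the 2 groups fitted alone (0.0549) and in DESeq2 (0.0976), and 0.52 in siUBE2M, which was called only in alternatives, among them with the 2 groups fitted alone (0.0405), with a replicate block (0.0421) and without the third control library (0.0328) or the third siNAE1 library (0.047). TRIP12, which shares 938 bases with FBXO36 on the opposite strand and is far more abundant, rose by 0.47 in siNAE1 and 1.39 in siUBE2M.

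**Figure D4:**
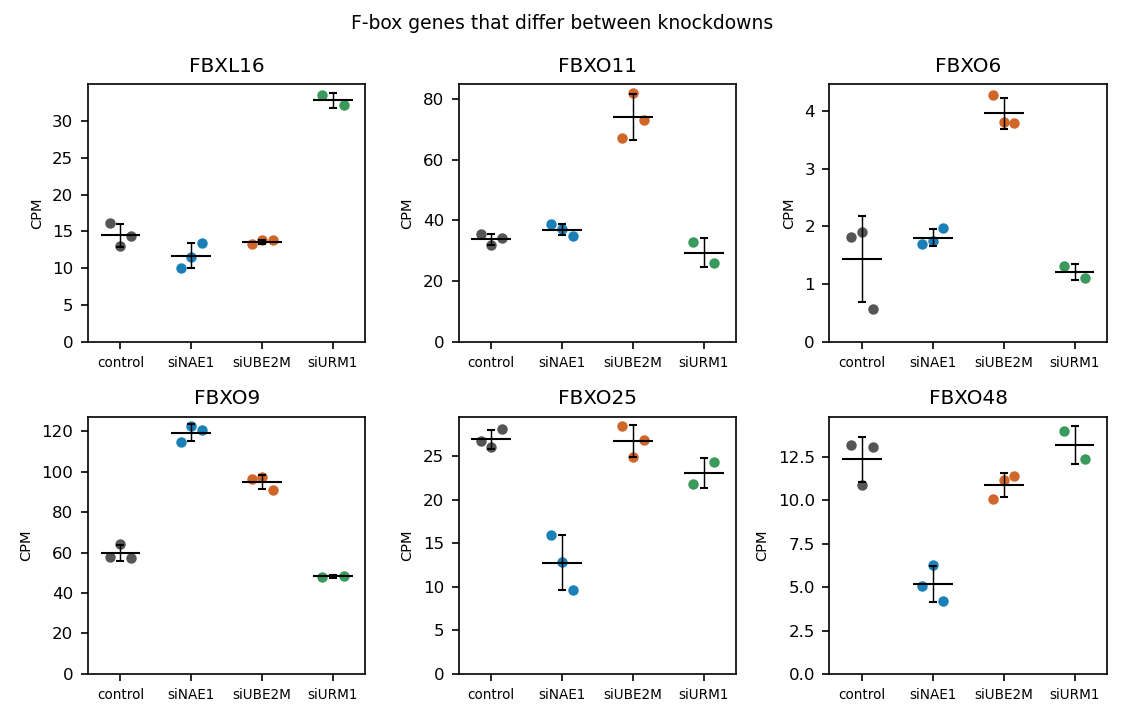
CPM in each library (points) with the group mean and SD (bars) for 6 F-box genes that differed between knockdowns by 1 or more on the log2 scale, in control (n = 3), siNAE1 (n = 3), siUBE2M (n = 3) and siURM1 (n = 2), with each axis starting at 0. FBXL16 stands apart in siURM1 at 32.1 and 33.5 CPM, FBXO11 and FBXO6 in siUBE2M, FBXO25 and FBXO48 in siNAE1, and FBXO9 is separate in all 4 groups.

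The remaining called members moved by less than 1 on the log2 scale. FBXL6, FBXL20, FBXO33 and FBXW9 rose in both neddylation knockdowns, by 0.45, 0.20, 0.26 and 0.57 in siNAE1 and 0.33, 0.43, 0.60 and 0.78 in siUBE2M, and were not called in siURM1. FBXW8 fell in the same 2, by 0.56 and 0.31. The FBXO33 libraries of siNAE1 (17.3 to 24.3 CPM) overlapped those of control (16.9 to 18.6). FBXL6 shares 3946 bases with SLC52A2 on the opposite strand, which had a mean of 842 control counts beside 393 for FBXL6. SLC52A2 rose by 0.40 in siNAE1 (edgeR adjusted p = 7.74e-05) and 0.48 in siURM1 (edgeR adjusted p = 3.97e-05), and was not called in siUBE2M (0.06). FBXL15, which acts on the ligase SMURF1, and FBXO21 rose in siNAE1 (0.52 and 0.56) and siURM1 (0.43 and 0.37), and FBXO10 and FBXO46 in siUBE2M (0.49 and 0.30) and siURM1 (0.70 and 0.27). FBXL15 shares 2351 bases on opposite strands with PSD, which had a mean of 85.7 control counts beside 409 for FBXL15. PSD rose by 0.53 in siNAE1 (edgeR adjusted p = 0.0102) and 1.45 in siURM1 (edgeR adjusted p = 6.03e-08), and was not called in siUBE2M (-0.41). FBXO30 rose in siNAE1 alone among the called comparisons (0.25), FBXO3 in siUBE2M (0.21), FBXL8 and FBXL19 in siURM1 (0.39 and 0.28), and FBXO8 fell in siURM1 (-0.39). The FBXL19 call was lost without the first siURM1 library (edgeR adjusted p = 0.186). The calls of FBXL20 in siNAE1 and FBXL8 in siURM1 stood nearer the threshold, at edgeR adjusted p-values of 0.035 and 0.0418. Apart from FBXL19, the genes of this paragraph were not checked under the alternatives.

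In direct tests between knockdowns, 29 members differed between siNAE1 and siUBE2M (beside 44.3% of all tested genes), 26 between siNAE1 and siURM1 (beside 38.6%) and 28 between siUBE2M and siURM1 (beside 35%). Those that also differed by 1 or more on the log2 scale were 7, 4 and 3 (beside 7.84%, 6.76% and 5.41%). The 7 between the neddylation knockdowns were FBXL22, FBXO11, FBXO25, FBXO36, FBXO43, FBXO48 and FBXO6, each lower in siNAE1 than in siUBE2M. FBXL16, FBXL22 and FBXO48 were lower and FBXO9 higher in siNAE1 than in siURM1, and FBXL16 was lower and FBXO11 and FBXO6 higher in siUBE2M than in siURM1. Of the tested members 12 were not called in any of the 3 comparisons with control (beside 26% of all tested genes), among them FBXO7, FBXL12 and FBXO34, which were well expressed, and FBXL7, FBXL13, FBXW10 and FBXW12, whose control means were under 1 FPKM.

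The other parts of the SCF ligase changed in both directions. Of 13 tested core and regulatory genes 6 rose and 5 fell in siNAE1, 4 and 4 in siUBE2M, and 4 and 2 in siURM1, and none moved by 1 or more on the log2 scale, while 20.8 to 27.6% of all tested genes were called in each direction. The adaptor SKP1 rose by 0.57, 0.37 and 0.58, RBX1 by 0.77, 0.22 and 0.52, and NEDD8 by 0.78, 0.39 and 0.32, each called in all 3 knockdowns. GLMN, which masks the RING protein RBX1, fell by 0.33, 0.44 and 0.27. CUL1 changed by -0.28 (called), 0.06 and -0.04, and CAND1 by 0.22, 0.27 (both called) and 0.11. The ubiquitin-conjugating enzyme UBE2R2 fell by 0.44 in siNAE1 and 0.68 in siUBE2M and was not called in siURM1 (0.01).

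**Figure D5:**
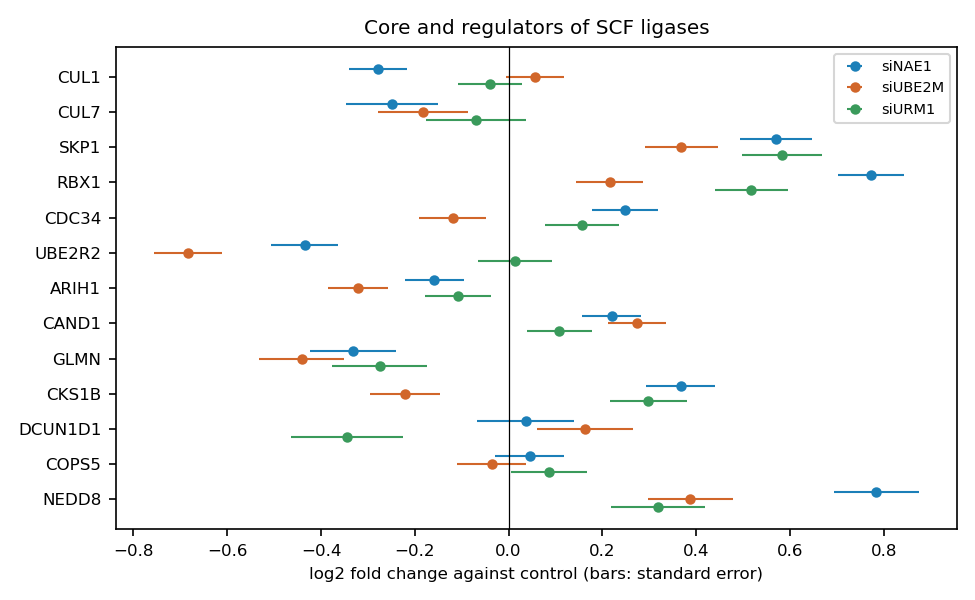
Log2 fold change against control (points) with its standard error (bars) for 13 core and regulatory genes of SCF ligases in siNAE1, siUBE2M and siURM1. NEDD8, RBX1 and SKP1 lie to the right of 0 in all 3 knockdowns, GLMN lies to the left, and no point reaches 1 in size.

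Known substrates of these receptors are controlled as proteins, and their RNAs are given as values only. Of 30 substrate genes 13 rose and 10 fell in siNAE1, 14 and 4 in siUBE2M, and 11 and 7 in siURM1, and their medians were 0.14, 0.20 and 0.10, while 20.8 to 27.6% of all tested genes were called in each direction. JUN, a substrate of FBXW7, fell by 1.14, 1.04 and 0.61, and SNAI1, a substrate of FBXL14 and the β-TrCP receptors, rose by 1.43 in siNAE1 (edgeR adjusted p = 0.00383) and 1.33 in siUBE2M (edgeR adjusted p = 0.00874), with 0.97 in siURM1 called only without the first siURM1 library (0.0364). The siUBE2M call of SNAI1 was lost without the second siUBE2M library (edgeR adjusted p = 0.0698). RRM2, the substrate of cyclin F, rose by 0.81, 0.38 and 0.71 beside the rise of CCNF.

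Among the F-box genes with other symbols, 7 of 8 were tested, of which 2 rose and 1 fell in siNAE1, 3 and 1 in siUBE2M, and 0 and 3 in siURM1, beside 20.8 to 27.6% of all tested genes in each direction. LRRC29, a leucine-rich F-box gene, fell by 1.32, 0.75 and 1.06 (edgeR adjusted p = 0.000163, 0.0178 and 0.00503). Its siUBE2M call was lost without the second control library (0.143) or the third siUBE2M library (0.0973) and in DESeq2 (0.0522), and its siURM1 call without the first siURM1 library (0.104). KDM2B, the histone demethylase with an F-box, rose by 0.21 in siNAE1 and 0.46 in siUBE2M, and the helicase gene FBH1 by 0.40 and 0.34.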

How the data were processed

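RNA-seq libraries were prepared by the authors from poly(A) RNA of HEK293T cells by the dUTP method. Per the labels and the study's methods, reads were cleaned with fastp, aligned to GRCh38 with HISAT2 2.0.5 and counted per gene with featureCounts 1.5.0-p3, and the deposited tables hold raw counts and FPKM per gene and library, with the gene length used. The submitters' notes also name DESeq2 1.20.0, and no comparison columns of the authors were used. The strand setting of the counting was not given in the sources used here. Of the members 46 overlap another gene, 41 on the opposite strand.

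Counts were fitted with edgeR 4.0.16 (R 4.3.3) by the quasi-likelihood test over all 4 groups, after filterByExpr and TMM normalisation, with no covariate and Benjamini-Hochberg adjustment over 18368 genes. A call is an adjusted p under 0.05, and the larger changes also have a log2 fold change of at least 1 in size. CPM were scaled by TMM, errors of CPM and FPKM are SD and those of fold changes SE, and a group's libraries are given in the order of their replicate numbers. The total count per library ranged from 11733163 to 16321391, and the common biological coefficient of variation was 7.06%. Ratios of low counts are pooled counts over scaled library sizes with exact 95% intervals, which cover counting error only. No pair of libraries held identical values.

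Members and gene lists were chosen with earlier results of these data known. The values of 1 member are not reported here, though it stands in the counts. Genes were named if they were in the receptor lists, were past both thresholds in a comparison with control or between knockdowns, were among the 3 highest or 3 lowest called members of a comparison with control, or were among the 5 highest in control. Of the other lists, targets and genes past both thresholds were named. Remaining genes, FBXO38, FBXW2 and FBXO42 among them, were named after their values were seen. Promoters came from RefSeq (GRCh38.p14). Alternatives were DESeq2 1.42.0, other size factors, filters and sample sets, a replicate block, protein-coding genes alone, a test against the fold threshold and leaving out each library. The test was checked on simulated counts. Figures were drawn with matplotlib 3.10.9.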

Additional observations from a re-analysis of the deposited data

Results flagged for a closer look

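Of the named F-box genes, 14 differences between knockdowns passed the direct edgeR test at an adjusted p under 0.05 and were 1 or more on the log2 scale. Between siNAE1 and siUBE2M these were FBXL22 (-3.38), FBXO11 (-1.002), FBXO25 (-1.05), FBXO36 (-1.11), FBXO43 (-2.43), FBXO48 (-1.05) and FBXO6 (-1.13). Between siNAE1 and siURM1 they were FBXL16 (-1.50), FBXL22 (-4.11), FBXO48 (-1.33) and FBXO9 (1.31). Between siUBE2M and siURM1 they were FBXL16 (-1.27), FBXO11 (1.33) and FBXO6 (1.70). The values of FBXL22 and FBXO43 rest on groups with 3 or fewer counts in each siNAE1 library, and the FBXO43 libraries of siNAE1 and siUBE2M overlapped at 3 counts. No sample was tested for standing apart within its group, because no group had more than 3 libraries.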

How the results depend on the processing

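The number of F-box genes called in each of the 6 comparisons stayed within 1.5 times under the other count model, size factors, filters, sample sets and gene sets tried. Counts past a log2 fold change of 1 were less stable. With at least 10 counts required in every library, 4 members were past it in siNAE1 (8 in the report), where CCNF moved to 0.98, 4 in siUBE2M (7) and 4 between siNAE1 and siUBE2M (7). With only the groups compared in the fit there were 5 in siNAE1. When the test itself was set against a log2 fold change of 1, there were 4 in siNAE1, 1 in siUBE2M, 1 in siURM1 (4 in the report), 0 between siNAE1 and siUBE2M and 1 between siUBE2M and siURM1 (3 in the report).

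Leaving out 1 library at a time gave 30 to 36 called members in siNAE1, 26 to 33 in siUBE2M, 22 to 30 in siURM1, 21 to 30 between siNAE1 and siUBE2M, 21 to 28 between siNAE1 and siURM1 and 20 to 30 between siUBE2M and siURM1. Past the fold threshold there were 6 to 9, 5 to 7, 4 to 4, 4 to 7, 4 to 6 and 3 to 5 in the same order. The count between siNAE1 and siUBE2M was 4 without the third siNAE1 library, and that between siUBE2M and siURM1 was 5 without siUBE2M library 2, siUBE2M library 3 or siURM1 library 2. Members at 1 FPKM or more in control numbered 51 to 53.

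Same-numbered libraries of different groups did not deviate together (correlations from -0.0657 to 0.0787 over 15 pairs), so the numbers do not pair the samples. With the replicate number as a block, 35, 33, 26, 28, 27 and 26 members were called in the same order, and 8, 7, 4, 7, 5 and 4 passed the fold threshold. Single genes were followed under the alternatives only where a naming rule had picked them, and only against control (138 values). Of their 2463 values under all alternatives, 67 lost a call, 27 gained one and 0 reversed a called direction, and the cause was not tested. Other genes given in the text, such as FBXO38, FBXW2, FBXO42 and SKP1, are outside this tally. So are the differences of single genes between knockdowns. Depth limits FBXO43, FBXO15 and FBXL22, whose siNAE1 libraries held 3 or fewer counts each.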
